A study of Mus musculus with 33 samples.

Results

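The genes described here are 9 myelin genes of mature oligodendrocytes, Mbp, Mobp, Mog, Mag, Cnp, Mal, Cldn11, Ugt8a and Opalin, chosen by name. Every probe set annotated to 1 of them alone was taken, which gave 25 probe sets of 45037 on the array that are not controls. Of the 25, Mbp has 8, Mobp 5, Cnp 3, Mal, Ugt8a and Opalin 2 each, and Mog, Mag and Cldn11 1 each. A filter on low signal kept 23 of them, and left out 1 dim probe set of Mobp (mean signal 2.11) and 1 of Opalin (mean signal 7.95).

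Right hippocampal RNA from 33 male mice was measured on Affymetrix MOE430 2.0 arrays, in 3 groups of 11 animals. Tg2576 mice given TO901317, an agonist of the liver X receptors (LXRs), received 50 mg/kg a day by oral gavage; Tg2576 mice and wild-type littermates given vehicle formed the other groups. The series' design text gives 7 days of dosing and the treatment protocol gives 5 days, and the design text puts perfusion at 1 hour after the last dose. All animals were on an SJL × C57BL/6J background and 20 weeks old. Tg2576 animals are heterozygous for human APP with the Swedish mutation, driven by a prion promoter. Which cells express the transgene was not measured here. Wild-type animals given the drug were not analysed here.

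Oligodendrocytes wrap axons in myelin, a stack of compacted membrane held together by basic and proteolipid proteins and built from cholesterol, galactolipids and other lipids. Mature, myelinating oligodendrocytes express the genes of these proteins together under transcription factors that include MYRF, SOX10 and the OLIG proteins. In the hippocampus, myelin lies mainly in the alveus, the fimbria and the axon layers. In whole tissue, fewer oligodendrocytes and less myelin RNA per oligodendrocyte cannot be told apart.

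Promoter sequences were looked at first, because the members are expressed together and MYRF binds a known short motif. The RefSeq promoter table (GRCm38.p6, 250 bases before to 50 after the start of a transcript) held 8 of the 9 genes, all but Mbp. The MYRF motif, searched as CTGGCAC or CTGGTAC on both strands, was present in 4 of the 8, Mag, Cnp, Mog and Opalin, against 7.1% of 32851 promoters of the same length. These 4 are shown 5′ to 3′ on the gene's own strand with the motif, or its reverse complement, in capitals. The Mag window is chr7:30914814-30915113 (minus strand), with the motif starting at −68 from the transcript start. A second Mag window, chr7:30914873-30915172, held the motif at −9 and is not shown. The Cnp window is chr11:100574689-100574988 (plus strand, motif at −81), the Mog window chr17:37023349-37023648 (minus strand, motif at −83) and the Opalin window chr19:41077064-41077363 (minus strand, motif at 37 bases past the start).
Mag: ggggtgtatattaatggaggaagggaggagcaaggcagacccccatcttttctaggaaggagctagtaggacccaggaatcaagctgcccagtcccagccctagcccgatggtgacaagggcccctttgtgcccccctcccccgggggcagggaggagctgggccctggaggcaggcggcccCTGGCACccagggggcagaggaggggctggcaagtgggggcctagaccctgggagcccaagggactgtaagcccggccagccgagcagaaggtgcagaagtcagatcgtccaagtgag
Cnp: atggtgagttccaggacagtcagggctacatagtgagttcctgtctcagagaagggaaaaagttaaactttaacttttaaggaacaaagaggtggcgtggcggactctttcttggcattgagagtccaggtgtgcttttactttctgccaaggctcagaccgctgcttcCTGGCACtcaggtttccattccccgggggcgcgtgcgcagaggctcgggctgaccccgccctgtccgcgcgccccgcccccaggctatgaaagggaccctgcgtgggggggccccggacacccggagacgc
Mog: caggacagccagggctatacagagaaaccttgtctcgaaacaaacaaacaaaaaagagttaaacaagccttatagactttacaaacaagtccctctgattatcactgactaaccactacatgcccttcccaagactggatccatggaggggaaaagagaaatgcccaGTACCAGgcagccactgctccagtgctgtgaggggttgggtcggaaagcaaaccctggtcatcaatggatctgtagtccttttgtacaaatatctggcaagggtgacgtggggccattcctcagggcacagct
Opalin: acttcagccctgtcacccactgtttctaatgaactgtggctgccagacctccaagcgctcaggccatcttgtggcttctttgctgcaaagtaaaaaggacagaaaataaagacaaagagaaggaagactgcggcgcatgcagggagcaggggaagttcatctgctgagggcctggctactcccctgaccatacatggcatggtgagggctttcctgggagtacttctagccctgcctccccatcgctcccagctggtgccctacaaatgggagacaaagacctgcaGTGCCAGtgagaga
The other motifs were rarer in the members or not found. ACAAT, the core bound by SOX factors, was in a window of 0 of the 8 genes against 31% of all promoters. CAGCTG, an E-box bound by OLIG proteins, was in 1 window, that of Opalin, against 16.3%. Paired LXR half-sites, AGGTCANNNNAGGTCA on either strand, were in 0 of the 8 against 0.0152%. Members were counted as genes with a match in any of their windows, and the background as single promoters, so the shares are not strictly alike. A match is a description of these letters and no measurement of binding.

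The arrays had been scaled, and the 2 percent trimmed mean came to 99.97 on each. Median signals were between 19.5 and 28.9, with both ends in the vehicle Tg2576 group (replicates 5 and 11). Vehicle Tg2576 replicates 3 and 4 stood apart in the Gapdh measure of RNA quality, the log2 ratio of the 3′ over the 5′ probe set. Their Gapdh ratios were 0.11 and 0.08, and that of each of the other 31 arrays was −0.08 or lower. Their Actb ratios, 1.18 and 1.26, lay inside the range of the arrays. That range ran from 0.77 (vehicle Tg2576 replicate 8) to 1.46 (wild-type replicate 2). The drug's known targets rose in treated Tg2576 animals: Abca1, a cholesterol exporter, by 0.61 on the log2 scale (adjusted p = 0.000164, limma), Srebf1 by 0.63, Scd1 by 0.66 and Abcg1 by 0.42, so that 4 of 4 passed for treated against vehicle Tg2576 animals, and 3 of 4 for treated Tg2576 against wild type. Of the markers of the tissue, 7 of 7 for dentate gyrus and 6 of 6 for the CA fields passed the filter on low signal. Of the markers of Schwann cells, which make peripheral myelin, Pmp2, Egr2 and Ncmap had mean signals of 3.14, 12.8 and 4.62, below the filter of 13.9, and Scn7a, a sodium channel gene, passed it at a mean of 19.1.

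All comparisons used log2(signal + 16), on which the change of dim genes is understated, and limma across all 27022 probe sets that passed the filter, with p-values adjusted over all of them, and a probe set passed at an adjusted p under 0.05. Signals of different probe sets were not compared with each other. Signals are given as the lowest, the median and the highest of the 11 animals of a group.

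For 7 of the 9 genes the lowest group mean was that of vehicle Tg2576 animals, and for Ugt8a and Opalin that of treated Tg2576 animals, but no myelin probe set passed the test in any comparison. Members called were 0 of 23 for TO901317 against vehicle in Tg2576, where 0.141% of all probe sets were called. They were 0 of 23 for vehicle Tg2576 against wild type, where 0.159% were called, and 0 of 23 for treated Tg2576 against wild type, where 0.144% were called. In each comparison the values of the 2 groups overlapped for all 23 probe sets. Overlap was not counted over all probe sets, so this describes the members and is not particular to them. The smallest adjusted p of a member was 0.266.

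**Figure D1:**
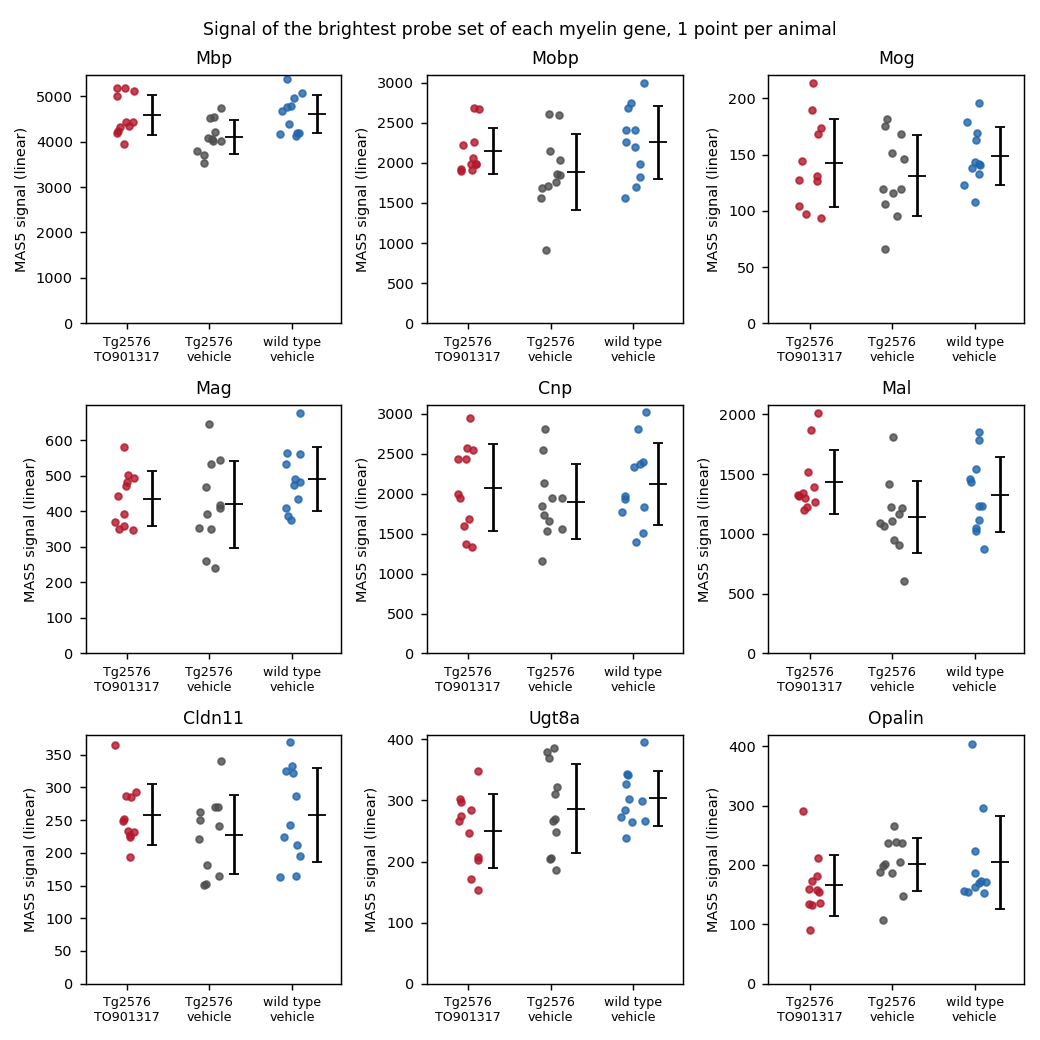
Signal (linear MAS5 units, axis from 0) of the brightest probe set of each of the 9 myelin genes, 1 point per animal in Tg2576 with TO901317, Tg2576 with vehicle and wild type with vehicle, with the mean and SD as black bars beside the points (n = 11 each). The groups overlap in every panel, and the single low vehicle Tg2576 point in most panels is replicate 10.

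Mbp encodes myelin basic protein, which joins the cytoplasmic faces of the membrane in compact myelin, and it is read by 8 probe sets. Its brightest probe set was at 3957, 4420 and 5188 in treated Tg2576 animals, at 3531, 4064 and 4743 in vehicle Tg2576 animals and at 4112, 4671 and 5383 in wild-type animals. The vehicle Tg2576 animals were the lower group and the treated and wild-type groups were level, with wide overlap among all 3. The log2 difference was 0.16 for treated against vehicle Tg2576 animals (SE 0.06, 95% interval 0.04 to 0.27, adjusted p = 0.283), with 10 of 11 treated animals above the vehicle median. It was −0.16 for vehicle Tg2576 against wild type (95% interval −0.28 to −0.05, adjusted p = 0.277, limma), with 10 of 11 vehicle Tg2576 animals below the wild-type median, and −0.01 for treated Tg2576 against wild type. All 8 Mbp probe sets were above 0 for treated against vehicle Tg2576 animals and below 0 for vehicle Tg2576 against wild type.

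The Mbp probe sets did not all follow the animals alike. The 5 brightest, with r between 0.47 and 0.66 to the other 8 genes as a median, tracked the myelin genes. The most variable Mbp probe set (median r 0.35) ranged from 763 to 3003 in vehicle Tg2576 animals and its log2 values had the largest spread, 0.68 (SD) there. Its log2 difference was 0.46 for treated against vehicle Tg2576 animals and −0.50 for vehicle Tg2576 against wild type, with adjusted p = 0.386 and 0.378 (limma). It followed the dimmest Mbp probe set (r = 0.71 over the 33 animals within groups), which had a median r of −0.15 to the other 8 genes. Vehicle Tg2576 replicates 3 and 4, the 2 arrays with a high Gapdh ratio, were the 2 lowest of their group in both. They were at 763 and 840 in the most variable probe set, where the next lowest animal was at 1733. In the dimmest probe set they were at 11.5 and 15.3. The part of RNA quality in this pair was not tested.

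Mobp encodes a small basic protein of compact myelin that is found in the central nervous system. Its brightest probe set was at 1902, 1992 and 2681 in treated Tg2576 animals, 909, 1849 and 2603 in vehicle Tg2576 animals and 1567, 2262 and 2996 in wild-type animals. The vehicle group held the lowest animal, and all 11 treated animals lay above the vehicle median. The log2 difference was 0.22 for treated against vehicle Tg2576 (95% interval −0.04 to 0.48, adjusted p = 0.556), −0.28 for vehicle Tg2576 against wild type (−0.53 to −0.02, adjusted p = 0.473) and −0.05 for treated Tg2576 against wild type. The dimmer Mobp probe sets differed by more: the dimmest of the 4 tested had the largest difference of any member in the treated against vehicle comparison, 0.54 (95% interval 0.16 to 0.91, adjusted p = 0.266), and 11 of 11 treated animals lay above the vehicle median. It was at 282, 339 and 639 in treated Tg2576 animals, at 116, 258 and 460 in vehicle Tg2576 animals and at 163, 347 and 500 in wild-type animals.

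Mal encodes a proteolipid of myelin membrane and lipid rafts. Its brightest probe set was at 1198, 1324 and 2011 in treated Tg2576 animals, 604, 1110 and 1808 in vehicle Tg2576 animals and 876, 1237 and 1856 in wild-type animals. All 11 treated animals lay above the vehicle median, and the groups overlapped. The log2 difference was 0.35 for treated against vehicle Tg2576 animals (SE 0.13, 95% interval 0.07 to 0.62, adjusted p = 0.335), the largest of the brightest probe sets in that comparison, −0.23 for vehicle Tg2576 against wild type and 0.12 for treated Tg2576 against wild type. The second Mal probe set differed by 0.31 for treated against vehicle Tg2576 animals.

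Cldn11 encodes claudin-11, which forms the tight junctions between myelin layers. It was at 194, 249 and 365 in treated Tg2576 animals, 152, 241 and 341 in vehicle Tg2576 animals and 163, 242 and 369 in wild-type animals. The 3 medians lay close together, and its log2 differences were 0.19 for treated against vehicle Tg2576 animals, −0.16 for vehicle Tg2576 against wild type and 0.03 for treated Tg2576 against wild type. The 95% interval of the first ran from −0.08 to 0.47 (adjusted p = 0.661).

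Mog and Mag encode proteins on the outside and inside edges of the sheath, Mog on the outer lamella and Mag, a sialic acid binding adhesion protein, next to the axon. Mog was at 93.8, 131 and 214 in treated Tg2576 animals, 65.8, 120 and 181 in vehicle Tg2576 animals and 108, 142 and 196 in wild-type animals. Mag was at 348, 442 and 582 in treated Tg2576 animals, 240, 408 and 645 in vehicle Tg2576 animals and 374, 482 and 678 in wild-type animals. Both were lower in the vehicle Tg2576 group than in wild type, by −0.19 for Mog and −0.25 for Mag on the log2 scale, and neither passed. For treated against vehicle Tg2576 animals, the difference was 0.11 for Mog and 0.09 for Mag, and for treated Tg2576 against wild type it was −0.08 for Mog and −0.16 for Mag.

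Cnp encodes 2′,3′-cyclic nucleotide phosphodiesterase, an enzyme of the cytoplasm-filled parts of the sheath. Its brightest probe set was at 1332, 1994 and 2946 in treated Tg2576 animals, at 1154, 1849 and 2811 in vehicle Tg2576 animals and at 1393, 1976 and 3021 in wild-type animals. The groups overlapped over most of their range, with log2 differences of 0.12 for treated against vehicle Tg2576 animals, −0.16 for vehicle Tg2576 against wild type and −0.04 for treated Tg2576 against wild type. The dimmest Cnp probe set differed by −0.45 for vehicle Tg2576 against wild type (95% interval −0.83 to −0.07, adjusted p = 0.418) and by 0.33 for treated against vehicle Tg2576 animals. Its 2 lowest vehicle Tg2576 signals, 135 and 150, were those of replicates 4 and 3, the arrays with a high Gapdh ratio, and the next was 242. Its log2 SD was 0.62 in vehicle Tg2576 animals and 0.30 in wild-type animals. The part of RNA quality in this difference was not tested.

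Ugt8a and Opalin had lower means in treated than in vehicle Tg2576 animals. Ugt8a encodes the enzyme that makes galactosylceramide, a main lipid of myelin, and Opalin a transmembrane glycoprotein of oligodendrocytes. Ugt8a was at 153, 267 and 349 in treated Tg2576 animals, 185, 269 and 386 in vehicle Tg2576 animals and 239, 299 and 395 in wild-type animals. Its log2 difference was −0.18 for treated against vehicle Tg2576 animals (adjusted p = 0.655) and −0.29 for treated Tg2576 against wild type (95% interval −0.54 to −0.03, adjusted p = 0.523), where 9 of 11 treated animals lay below the wild-type median. Opalin was at 91.1, 157 and 290 in treated Tg2576 animals, 108, 202 and 265 in vehicle Tg2576 animals and 153, 171 and 403 in wild-type animals. Its difference was −0.27 for treated against vehicle Tg2576 animals (95% interval −0.59 to 0.04, adjusted p = 0.556), −0.26 for treated Tg2576 against wild type and 0.01 for vehicle Tg2576 against wild type. Opalin and the 2 Ugt8a probe sets were the 3 of 23 below 0 for treated against vehicle Tg2576 animals, and none of them passed.

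**Figure D2:**
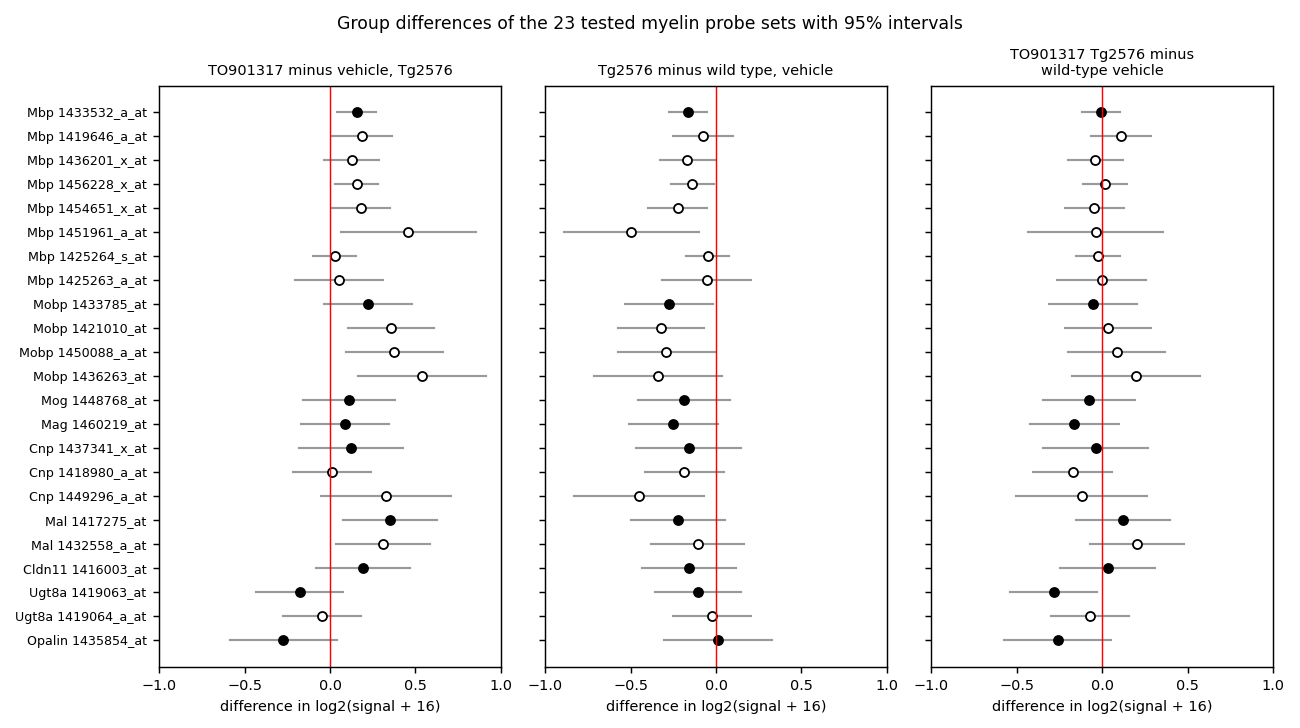
Log2 difference with its 95% interval for the 23 tested myelin probe sets in 3 comparisons, filled points for the brightest probe set of a gene and open points for its others. Points for TO901317 against vehicle lie mostly right of 0 (20 of 23) and those for vehicle Tg2576 against wild type mostly left of it (22 of 23), and both comparisons share the 11 vehicle Tg2576 animals.

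Read together, the direction was shared by most members but small. For vehicle Tg2576 against wild type 22 of the 23 probe sets were below 0 and the median of the 9 genes was −0.16 on the log2 scale (range −0.28 to 0.01), beside a median of 0.000313 over all 27022 probe sets. For treated against vehicle Tg2576 animals 20 of 23 were above 0, and the 9 genes had a median of 0.12 (range −0.27 to 0.35), beside 0.00371 over all. For treated Tg2576 against wild type 8 were above and 15 below 0, with a median of −0.05 for the 9 genes beside 0.00544. The first of these comparisons share the vehicle Tg2576 animals, so values low in that group give opposite signs in both. Without vehicle Tg2576 replicate 10, the animal with the lowest myelin signal, the median of the 9 genes was 0.05 for treated against vehicle Tg2576 animals and −0.11 for vehicle Tg2576 against wild type.

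Unadjusted p-values below 0.05 were found for 10 of 23 member probe sets (43.5%) in the treated against vehicle comparison, against 10.5% of all probe sets, for 9 of 23 (39.1%, against 9.70%) in vehicle Tg2576 against wild type and for 1 of 23 (4.35%, against 8.20%) in treated Tg2576 against wild type. The 10 probe sets all belonged to Mbp, Mobp and Mal, and the 9 to Mbp, Mobp and Cnp. By the brightest probe set of each gene, only Mbp and Mal were below 0.05 for treated against vehicle Tg2576 animals. For vehicle Tg2576 against wild type only Mbp and Mobp were. Probe sets of 1 gene, and genes of 1 cell type, share the same animals, so these counts are not independent and are given as a description.

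The ratios of Opalin and Ugt8a to Mal within an array were looked at after the opposite signs of their differences were seen, so they are a description and no test is given. The log2 of Opalin over Mal was −3.59, −3.01 and −2.32 in treated Tg2576 animals, −2.85, −2.35 and −2.17 in vehicle Tg2576 animals and −3.21, −2.72 and −2.01 in wild-type animals. Of the 11 treated animals, 10 lay below the vehicle median, with overlap, and the difference of the means was −0.62 for treated against vehicle Tg2576 animals. The log2 of Ugt8a over Mal was −3.08, −2.34 and −1.95 in treated Tg2576 animals, −2.33, −1.91 and −1.62 in vehicle Tg2576 animals and −2.33, −2.10 and −1.62 in wild-type animals. All 11 treated animals lay below the vehicle median, again with overlap, and the difference of the means was −0.53. A ratio shows unequal levels within an array and not which of the genes differed.

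**Figure D3:**
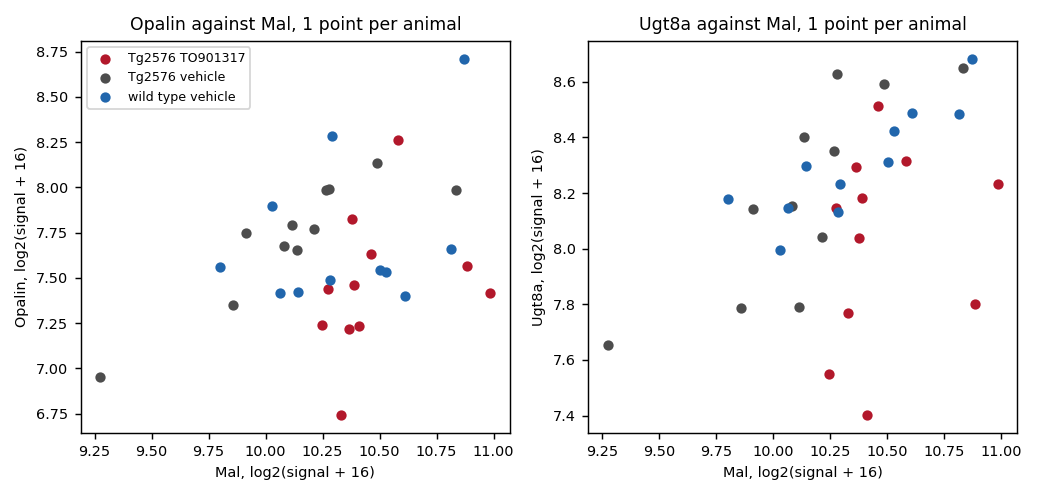
Opalin (left) and Ugt8a (right) against Mal, log2(signal + 16) of the brightest probe sets, 1 point per animal in treated Tg2576, vehicle Tg2576 and wild-type groups. Many treated points lie below the vehicle Tg2576 points of similar Mal signal, with overlap.

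Myelin signal differed more between animals of a group than most genes did. The median within-group SD of the 9 genes was 0.33 on the log2 scale, against 0.18 over 12765 genes. Of the 9 brightest probe sets, 8 had an SD higher than 89.6% to 95.7% of the genes, and that of Mbp had a low SD of 0.13, higher than 23.5% of them. Other Mbp probe sets had an SD from 0.14, higher than 28.4% of the genes, to 0.46, higher than 98.2%. For the brightest probe sets other than that of Mbp, a difference had to be larger than for a typical gene to pass.

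The animals were ranked by the mean over the 9 genes of the deviation from the mean of all 33. The mean deviation ranged from −0.30 to 0.31 in treated Tg2576 animals (median 0.02), from −0.75 to 0.41 in vehicle Tg2576 animals (median −0.11) and from −0.25 to 0.54 in wild-type animals (median 0.10). The 3 groups overlapped over most of the range. Vehicle Tg2576 replicate 10 was lowest of all 33 at −0.75 and the lowest of its group in 8 of 9 genes. Wild-type replicate 3 was highest at 0.54 and the highest of its group in 6 of 9 genes, and vehicle Tg2576 replicate 5 was the highest of its group in 7 of 9 genes. These 3 animals stood at an end of their group in most of the members.

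**Figure D4:**
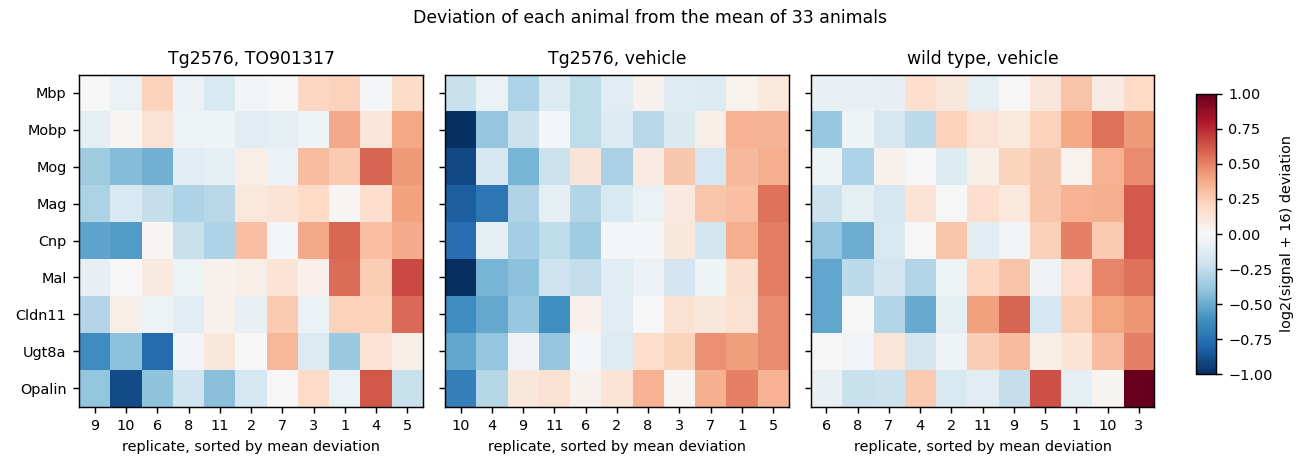
Deviation of each animal (columns, sorted by the mean over the 9 genes within a group) from the mean of the 33 animals on the log2(signal + 16) scale, for treated Tg2576, vehicle Tg2576 and wild-type groups. Colours reach their limit at −1 and 1. The columns of vehicle Tg2576 replicate 10 (−0.75 in the mean) and wild-type replicate 3 (0.54) are mostly of 1 colour, and others are mixed, such as treated Tg2576 replicate 6.

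Correlations between members, computed within each group of 11 animals, were mostly positive. The median Pearson r over 36 pairs was 0.55 in treated Tg2576 animals (range −0.40 to 0.91), 0.80 in vehicle Tg2576 animals (range 0.50 to 0.93) and 0.64 in wild-type animals (range 0.07 to 0.90). Over all pairs of the 12765 genes the medians were 0.008, 0.014 and 0.010 in the treated, vehicle and wild-type groups. After Benjamini-Hochberg adjustment over 108 permutation tests, 12 pairs passed in treated Tg2576 animals, 30 in vehicle Tg2576 animals and 17 in wild-type animals by r, and 6, 19 and 12 pairs by Spearman's rho. Whether the groups differ in r was not tested. Without the 2 animals farthest from the median of the first gene the medians were 0.47 in treated Tg2576, 0.60 in vehicle Tg2576 and 0.52 in wild-type animals. Leaving out single animals gave 0.69 to 0.83 in the vehicle Tg2576 group, lowest without replicate 10.

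Of the 36 pairs, 9 passed by r in all 3 groups, and Mal took part in 5 of them. Some of these pairs did not pass by rho in every group. Mog and Opalin, for example, had rho 0.39 in vehicle Tg2576 animals (adjusted p = 0.298, permutation test). Mobp and Mal had r = 0.91 in treated Tg2576 animals (rho 0.65, permutation p = 0.00146 and 0.0377, adjusted p = 0.007 and 0.0832). It had r = 0.93 in vehicle Tg2576 animals (rho 0.82, permutation p = 9e-05 and 0.00339, adjusted p = 0.00243 and 0.0203) and r = 0.89 in wild-type animals (rho 0.83, permutation p = 0.00047 and 0.00278, adjusted p = 0.00423 and 0.02). Without the 2 farthest animals it was 0.53 in treated Tg2576, 0.86 in vehicle Tg2576 and 0.79 in wild-type animals. Mal and Cldn11 had r = 0.86 in treated Tg2576 animals (rho 0.81, permutation p = 0.00021 and 0.00412), 0.82 in vehicle Tg2576 animals (rho 0.83, permutation p = 0.00102 and 0.00267) and 0.90 in wild-type animals (rho 0.89, permutation p = 0.00024 and 0.00063), each with an adjusted p of 0.0212 or less. Without the 2 farthest animals it was 0.82 in treated Tg2576, 0.69 in vehicle Tg2576 and 0.91 in wild-type animals. The median r of Ugt8a to the other 8 genes was 0.37 in treated Tg2576, 0.78 in vehicle Tg2576 and 0.64 in wild-type animals. Its r to Mbp was −0.40 in treated Tg2576 animals (rho −0.33, permutation p = 0.218), −0.02 without the 2 farthest animals.

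**Figure D5:**
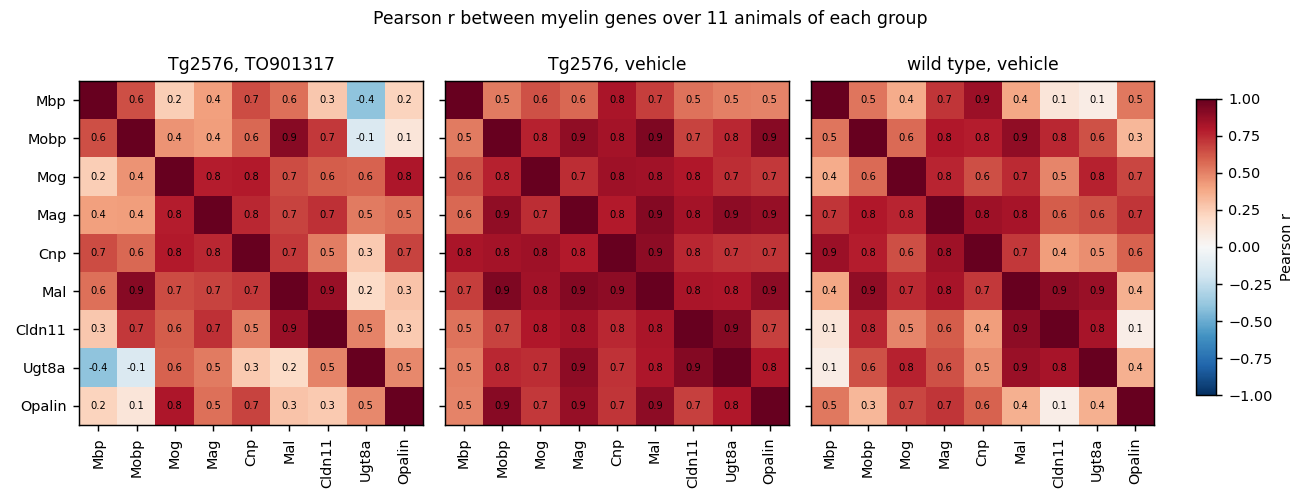
Pearson r between the 9 myelin genes over the 11 animals of the treated Tg2576, vehicle Tg2576 and wild-type groups, on a scale from −1 to 1. Most cells are positive in each group, with medians of 0.55, 0.80 and 0.64.

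Other genes followed the members across the 33 animals once group means were removed. The 12 genes nearest to the members, by the median r to the 9 genes, were Septin4, Grb14, Slc44a1, Tmem88b, Gpr37, Pde8a, Ppp1r14a, Plxnb3, Efhd1, Evi2a, Qdpr and Pllp, with a median r from 0.72 to 0.80. Of these, 7 stand in the list of other myelin and oligodendrocyte genes, among them Gpr37, a G protein coupled receptor of oligodendrocytes, and Pllp, the myelin protein plasmolipin. Over all 12765 genes the median of this measure was 0.02, and 63 genes (0.494%), 6 of them members, reached 0.6. The members Ugt8a (0.57), Opalin (0.53) and Mbp (0.47) did not. The value of Mbp is that of its brightest probe set. The others of its 5 brightest had a median r to the other 8 genes of 0.49, 0.62, 0.65 and 0.66. In no comparison did any of the 12 pass by limma, and unadjusted p-values were below 0.05 for 1 of them in treated against vehicle Tg2576 animals, 3 in vehicle Tg2576 against wild type and 5 in treated Tg2576 against wild type. Slc44a1, a choline transporter, was the one with the largest difference for treated against vehicle Tg2576 animals among those above 0, 0.22 (adjusted p = 0.439), and Pllp the largest below 0, −0.30 (adjusted p = 0.533).

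Transcription factors of the lineage differed in how closely they followed the members. Myrf, the regulator named for the motif above, had a median r to the members of 0.64, Sox10 and Olig1 0.57 each and Olig2 0.27, while the 13 tested factors had a median of 0.15 (range −0.15 to 0.64). Of the 13 tested transcription factors, 0 passed in any comparison, with a list median of 0.09 for treated against vehicle Tg2576 animals, −0.17 for vehicle Tg2576 against wild type and −0.02 for treated Tg2576 against wild type. Myrf itself was 0.36 higher in treated than in vehicle Tg2576 animals (adjusted p = 0.404) and lower by −0.34 in vehicle Tg2576 animals than in wild type. Nkx2-2, a homeodomain factor of oligodendrocyte differentiation, had the smallest p of the list for vehicle Tg2576 against wild type (−0.33, adjusted p = 0.15), Zfp536 for treated against vehicle Tg2576 animals (0.28, adjusted p = 0.356) and Olig1 for treated Tg2576 against wild type (−0.23, adjusted p = 0.252). Unadjusted p-values below 0.05 were found for 3, 6 and 2 of the 13 factors in the same order of comparisons. Of 10 tested genes of axon and glia contact, 0 passed by limma, with 0, 1 and 2 at an unadjusted p below 0.05. The smallest p belonged to the adhesion genes Cadm4 for vehicle Tg2576 against wild type (−0.20, adjusted p = 0.485) and Nrcam for treated Tg2576 against wild type (−0.10, adjusted p = 0.464).

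Other myelin genes gave the same count. Of 50 listed genes, 44 were tested and 0 passed by limma in each comparison, with 38 below 0 for vehicle Tg2576 against wild type (median −0.14) and 37 below 0 for treated Tg2576 against wild type (median −0.12). For treated against vehicle Tg2576 animals the list was evenly split, 21 above and 23 below 0 (median −0.01), whereas 7 of the 9 members were above 0. Unadjusted p-values were below 0.05 for 5 of them in treated against vehicle Tg2576 animals, 13 in vehicle Tg2576 against wild type and 16 in treated Tg2576 against wild type. The genes of smallest p were Bcas1, an oligodendrocyte protein, for vehicle Tg2576 against wild type (−0.33, adjusted p = 0.176), Sgk2 for treated against vehicle Tg2576 animals (−0.32, adjusted p = 0.27) and Serpinb1a for treated Tg2576 against wild type (−0.66, adjusted p = 0.0947). Markers of oligodendrocyte precursors had a median r of 0.05 to the members, and 0 of 10 passed by limma, with 0, 3 and 3 at an unadjusted p below 0.05 in the same comparisons.

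The 18 tested genes of myelin lipid synthesis had a median r to the members of 0.17 (range −0.23 to 0.64). At the upper end, Cers2, which makes very long chain ceramides, Fa2h, which hydroxylates their fatty acids, and Gal3st1, which makes sulfatide, had a median r of 0.64, 0.61 and 0.59 and did not pass in any comparison. Of the 18, the cholesterol synthesis enzymes Fdft1, Fdps, Sqle and Hmgcs1 rose in vehicle Tg2576 against wild type, by 0.56, 0.48, 0.49 and 0.28 on the log2 scale, and their median r to the members was 0.04, −0.15, −0.12 and 0.03. For treated against vehicle Tg2576 animals, Idi1 (−0.37), Sqle (−0.36) and Hmgcs1 (−0.25) fell and Scd1, a fatty acid desaturase and LXR target, rose by 0.66. Without vehicle Tg2576 replicates 3 and 4, 1 lipid gene of the 18 passed as lower in that comparison. Scd1 was also the 1 lipid gene that passed for treated Tg2576 against wild type, rising by 0.64, and its median r to the members was 0.50.

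Markers of tissue other than oligodendrocytes were set beside these values. All 10 tested markers of meninges and fibroblasts were above 0 for vehicle Tg2576 against wild type, with a median of 0.51 on the log2 scale, and all 10 were below 0 for treated against vehicle Tg2576 animals (median −0.20). Their summed signal ranged from 620 to 1821 in treated Tg2576 animals, from 879 to 2445 in vehicle Tg2576 animals and from 589 to 2107 in wild-type animals, and their median r to the members was −0.29. Unadjusted p-values were below 0.05 by limma for 9 of these 10 markers in vehicle Tg2576 against wild type. In treated against vehicle Tg2576 animals they were below 0.05 for 0 of 10. Igfbp6 alone passed, rising by 0.60 in vehicle Tg2576 against wild type (adjusted p = 0.0275, limma). It did not pass without vehicle Tg2576 replicates 3 and 4, nor without replicate 10. The part of these markers in the myelin differences was not tested. Markers of thalamus and striatum, regions next to the dissected tissue, had a median of −0.09 for treated against vehicle Tg2576 animals and 0.14 for vehicle Tg2576 against wild type, and 0 of 9 passed by limma, with 1 and 2 at an unadjusted p below 0.05. Choroid plexus markers had a median r to the members of 0.02, with 0 of 10 passing and 0 at an unadjusted p below 0.05. For vehicle Tg2576 against wild type, the median was −0.15 for astrocytes (8 of 10 below 0) and −0.23 for dentate gyrus (6 of 7). It was −0.13 for oligodendrocyte precursors, −0.05 for endothelium, −0.03 for neurons, 0.01 for the CA fields and 0.03 for microglia. Of the remaining marker lists, Slc4a4 of astrocytes (−0.27) and Tdo2 of dentate granule cells (−0.77) fell in vehicle Tg2576 against wild type, Slc4a4 also fell in treated Tg2576 against wild type (−0.29), and Slco1a4 of endothelium rose by 0.42 in treated against vehicle Tg2576 animals. Without vehicle Tg2576 replicates 3 and 4, 0 of 7 endothelial markers passed in that comparison.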

How the data were processed

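Total RNA of the right hippocampus of 33 mice was hybridised to 33 arrays, 1 per animal. Deposited intensity values are linear MAS5 signals, per the submitters' processing notes; its version is not given in the sources used here. The 2 percent trimmed mean was 99.97 on all arrays to 2 decimals while medians differed, so arrays were scaled but not made equal in distribution. Groups come from the labels. Of 45101 probe sets, 64 controls were left out, and 34945 were named for 1 gene, 932 for several and 9160 for none by the platform annotation, which can be old; older symbols were updated through RefSeq synonyms.

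Values were log2(signal + 16). After leaving out the dimmest 40 percent of probe sets (mean below 13.9), limma 3.58.1 in R 4.3.3 (lmFit with 1 mean per group over 33 arrays, eBayes with trend and robust) tested 27022, with Benjamini-Hochberg adjustment and a limit of 0.05. A gene's brightest probe set stands for it in correlations and lists. Correlations used 100000 resamples. The fit was tested on simulated data. The members and lists, and the rule naming the 12 nearest genes and, per list, the genes passing or of smallest p, were chosen with earlier results of these data known. Further lipid genes and transcription factors named for their r (Myrf, Sox10, Olig2, Cers2, Fa2h, Gal3st1) were chosen after their values were seen. No array gives a detection call here, and the number of animals limits the precision. Alternatives tried were other pseudocounts, filters, normalizations, fits and left-out arrays.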

Additional observations from a re-analysis of the deposited data

How the results depend on the processing

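Across 12 processing alternatives, 0 myelin probe sets passed in any of the 3 comparisons and all 324 log2 differences of the 9 genes kept their direction. Other filters, 1 probe set per gene, plain eBayes, fits of only the 2 groups and the replicate block cannot change such a difference. Leaving out vehicle Tg2576 replicates 3 and 4 cannot change that of treated Tg2576 against wild type. Only the other directions among the 324 could have changed. Counts over the whole table moved by more than 1.5 times in these cases. With the lowest 60 percent left out, 59 probe sets passed for treated against vehicle Tg2576 animals and 66 for treated Tg2576 against wild type. With only the 2 groups in the fit, 25 passed for vehicle Tg2576 against wild type, and with array weights 86 passed for treated Tg2576 against wild type. Without vehicle Tg2576 replicates 3 and 4, 9 passed for treated against vehicle Tg2576 animals. The cause of these shifts was not tested. The median r of vehicle Tg2576 animals was 0.60 without the 2 farthest animals. With the replicate number as a block, 38 probe sets passed for treated against vehicle Tg2576 animals, 50 for vehicle Tg2576 against wild type and 42 for treated Tg2576 against wild type, and 0 members in each. The median correlation of same-numbered deviations was 0.10, 0.06 and 0.07, against −0.01, −0.02 and −0.02 for other numbers. It was over 0.1 for 7, 2 and 4 of 11 same-numbered pairs. In each comparison 1 of 11 animals correlated best with its own number. Whether the numbers carry a shared order or batch was not tested.

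Leaving out 1 animal at a time gave 14 to 51 probe sets for treated against vehicle Tg2576 animals, 25 to 58 for vehicle Tg2576 against wild type and 25 to 61 for treated Tg2576 against wild type, with 0 to 0 members. The median of the 9 genes ranged from 0.05 to 0.18, from −0.22 to −0.11 and from −0.10 to −0.02 in the same comparisons, and the median r from 0.50 to 0.61 in treated Tg2576, 0.69 to 0.83 in vehicle Tg2576 and 0.49 to 0.71 in wild-type animals. In these fits 25 of 891 gene differences changed sign, all close to 0: Opalin for vehicle Tg2576 against wild type (−0.0289 to 0.111), and for treated Tg2576 against wild type Mbp (−0.0266 to 0.0149), Cnp (−0.0952 to 0.0199) and Cldn11 (−0.0248 to 0.0857). Fits without an animal of the group not compared leave a difference as it was, so that part of the 891 could not change sign. Opalin over Mal, added after the data were seen, ranged from −0.69 to −0.57.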
